A study of Triticum aestivum with 15 samples.

Results

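Gibberellin 20-oxidase is a soluble dioxygenase that carries out the late oxidation steps in which gibberellin precursors are made into the substrates of gibberellin 3-oxidase, the enzyme that forms the active hormone. In germinating cereal grain, gibberellins formed in the embryo and scutellum are known to reach the aleurone layer, where they switch on genes of reserve breakdown such as those of alpha-amylase. Bread wheat is an allohexaploid with A, B and D genomes, so that most genes are present as related copies, called homoeologs. The copies of GA20ox1, one of the gibberellin 20-oxidase genes of wheat, are described here across germination.

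The members were all probe sets whose gene symbol in the platform annotation was LOC543325, LOC543326 or LOC543327. The wheat gene names of the RefSeq assembly IWGSC CS RefSeq v2.1 give the synonyms GA20ox1d and Ta20ox1D for LOC543325, GA20ox1b and Ta20ox1B for LOC543326, and GA20ox1a and Ta20ox1A for LOC543327. These are 3 of the 771 genes to which the annotation gives a symbol, and they were represented by 4 probe sets of the 61179 tested. LOC543325 had a pair of them, called S1_at and S1_x_at here after the ends of their IDs, and LOC543326 and LOC543327 had 1 probe set each. Each probe set was annotated with a single gene. The ending _x_at is given by the manufacturer to probe sets with probes that may also match other transcripts, so its values are less certain to come from LOC543325 alone. Homoeologs are near-identical in sequence, and whether the other 3 probe sets respond to a single copy was not tested, since no probe sequences were used here.

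Total RNA of whole seeds of the wheat cultivar Jimai 20 was hybridized to 15 Affymetrix Wheat Genome Arrays, with 3 biological replicates at each of 5 stages. The stages were the dry seed before imbibition (0 HAI, hours after imbibition) and seeds at 12, 24, 36 and 48 HAI. Sterile seeds were steeped in water for the first 12 hours and then kept in dishes with water, the labels name no hormone or inhibitor for any group, and the radicle emerged at 24 HAI. No cell type or seed part was separated, so more cells of a type and more RNA per cell cannot be told apart.

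All values below are MAS5 signals, an intensity on a linear scale in which the authors' software had scaled the arrays to nearly equal trimmed means. Array medians were between 64.2 and 101, the highest of them in the dry seed, and replicate arrays correlated at r of 0.930 to 0.969 over the probe sets. Seed markers differed between the dry seed and 48 HAI. The summed intensity of the 11 probe sets of gliadins and glutenins, the storage proteins of the endosperm, was 417 at 48 HAI against 19628 at 0 HAI, and that of 9 probe sets of Em, dehydrin and related dry seed proteins was 22542 at 48 HAI against 457979 at 0 HAI. The core histones H2A and H2B, which accumulate in dividing cells, had 17 of 18 probe sets higher at 48 HAI than at 0 HAI. Controls for RNA length differed between genes. For G-6-PDH the 3′ probe set divided by the 5′ probe set averaged 9.53 ± 1.31, 12.4 ± 3.45, 16.1 ± 0.627, 16.5 ± 1.72 and 28.6 ± 7.38 (SD, n = 3) at 0, 12, 24, 36 and 48 HAI. The same ratio averaged 0.502, 0.591, 0.664, 0.615 and 0.762 for ubiquitin, 0.909, 0.410, 0.296, 3.81 and 8.50 for actin, and 0.286, 0.223, 0.211, 0.0850 and 1.07 for the gapdh probe sets. Their part in the changes below was not tested.

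All 3 genes were dim in the dry seed and higher at 24, 36 and 48 HAI. In the dry seed 11 of the 12 values of the 4 probe sets lay under an intensity of 32, below which signals were treated as having no order. LOC543325 and LOC543326 were called higher at 24 than at 12 HAI, the step that ends with radicle emergence. LOC543327 was not called in any step between neighbouring stages, although its stage means were higher at each stage up to 36 HAI. Steps from the dry seed are bounds, so they were not ranked against later steps. The moderated F-test of limma over the 5 stages called 4 of 4 member probe sets, at Benjamini-Hochberg adjusted p between 1.84e-08 and 0.000851, in a table where 47.7% of all tested probe sets were called. A call in this test is thus common among all genes, and the steps between stages carry more of the description.

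**Figure D1:**
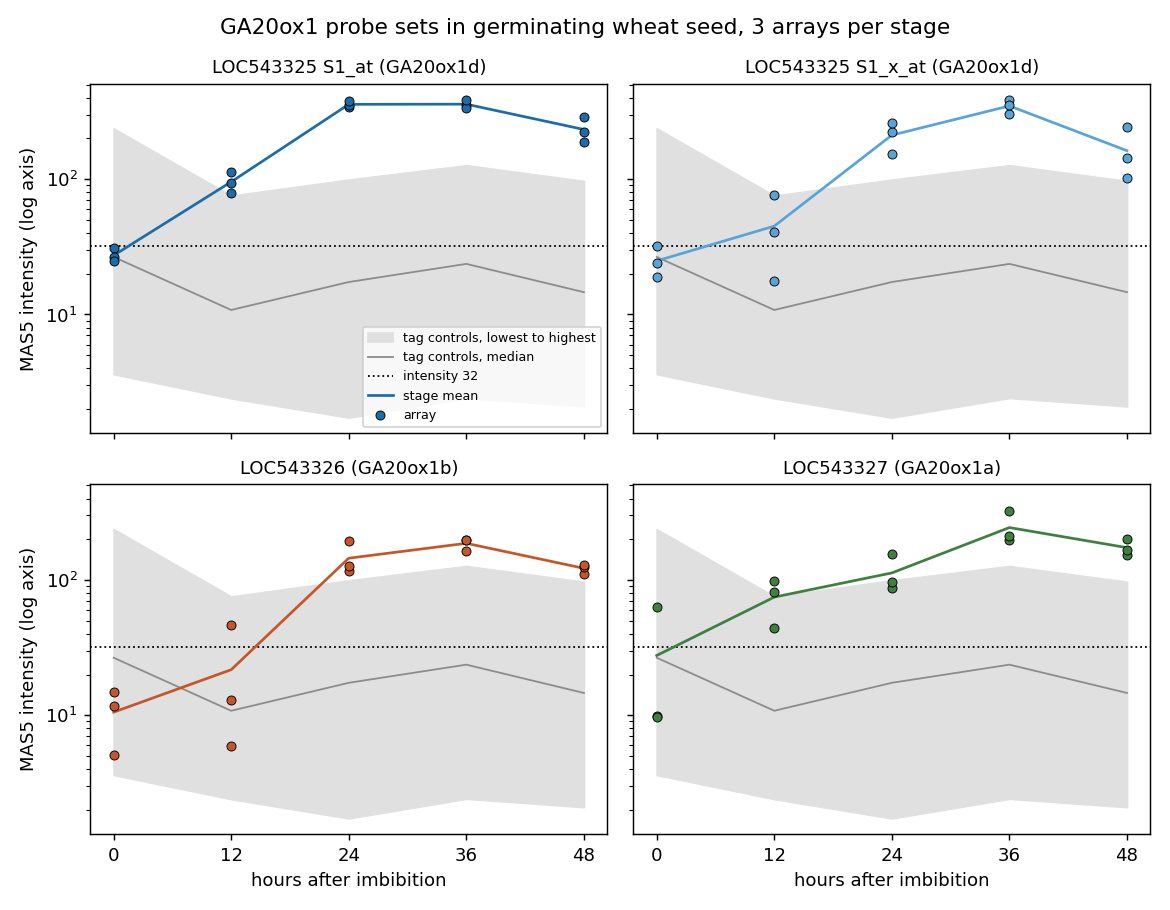
MAS5 intensity (log axis) of the 4 GA20ox1 probe sets against hours after imbibition, with 1 point per array, 3 arrays per stage, and a line through the stage means. The grey band spans the lowest to the highest of 17 manufacturer's tag control probe sets, the grey line is their median, and the dotted line marks an intensity of 32. At 0 HAI every member array lies inside the band, and at 36 and 48 HAI every member array lies above it.

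LOC543325, the D genome copy, was called higher at 12 HAI than in the dry seed in S1_at only. Both of its probe sets were called higher at 24 than at 12 HAI. Its probe set S1_at, the least variable of the 4, had 30.8, 26.4 and 24.8 at 0 HAI, 79.7, 113 and 94.3 at 12 HAI, 343, 352 and 377 at 24 HAI, 353, 334 and 388 at 36 HAI, and 286, 223 and 189 at 48 HAI. The 3 arrays of 12 HAI were all above those of the dry seed, those of 24 HAI were all above those of 12 HAI, 24 and 36 HAI overlapped, and 48 HAI was below 36 HAI with no overlap. How often arrays of different stages do not overlap over all probe sets was not counted. Overlap is therefore given here and below only as a description of the values. The stage means were 27.3 ± 3.07, 95.6 ± 16.6, 357 ± 18.0, 358 ± 27.1 and 233 ± 49.1 (SD, n = 3) from 0 to 48 HAI.

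The change of this probe set on the log2(intensity + 16) scale was 1.36 ± 0.16 (SE) for 12 against 0 HAI (limma adjusted p = 5.75e-05). It was the one member called higher in this comparison, where 10.1% of all probe sets were called higher. For 24 against 12 HAI the log2 change was 1.75 ± 0.16 (adjusted p = 3.25e-06), a 3.77-fold difference in intensity. As all dry seed values were under 32, folds against the dry seed are bounds, computed with each value under 32 set to 32. Here and below, "at least" holds only for a background of at most 32. A control for background reached 237 in the dry seed, and a floor of 64 gave smaller folds, as described further on. The intensity of S1_at was at least 2.96-fold higher at 12 HAI, at least 11.2-fold higher at 24 HAI, at least 11.2-fold higher at 36 HAI and at least 7.17-fold higher at 48 HAI than at 0 HAI.

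Between 24 and 36 HAI this probe set of LOC543325 had a log2 change of 0.00 ± 0.16 (limma adjusted p = 0.998). With arrays scaled to the poly-A controls it was called higher at 36 HAI (0.55, adjusted p = 0.0316). Under that scaling the median log2 change of all tested probe sets for this step was 0.42, and 14085 of 61179 were called higher. At 48 HAI S1_at was lower than at 36 HAI, by a log2 change of -0.60 ± 0.16 (adjusted p = 0.0306). This was the one member called lower for 48 against 36 HAI, where 5.28% of all probe sets were called lower, and the call is sensitive to the processing. It was lost under 5 of 11 other ways of processing, which were 1 in place of 16 added before log2, equal array medians, an intensity trend, the replicate number as a block, and a fit of the 2 stages alone (adjusted p between 0.0505 and 0.117). It was also lost when any of the 3 arrays of 36 HAI was left out, or when replicate 2 or 3 of 48 HAI was, with adjusted p up to 0.120 over the single arrays left out.

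The second probe set of LOC543325, S1_x_at, followed the same broad course with more spread. It had 18.9, 31.97 and 23.8 at 0 HAI, 40.4, 76.9 and 17.7 at 12 HAI, 224, 153 and 258 at 24 HAI, 306, 385 and 354 at 36 HAI, and 241, 144 and 102 at 48 HAI. One array of 12 HAI lay below the whole dry seed group, so these stages overlapped, while 12 and 24 HAI, 24 and 36 HAI, and 36 and 48 HAI had no overlap. Its stage means were 24.9 ± 6.60, 45.0 ± 29.9, 212 ± 53.9, 348 ± 39.7 and 162 ± 71.4 (SD, n = 3).

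In limma this probe set had a log2 change of 0.47 ± 0.36 for 12 against 0 HAI (adjusted p = 0.386), which did not pass the test, and of 1.99 ± 0.36 for 24 against 12 HAI (adjusted p = 0.000899), which did. The value for 36 against 24 HAI was 0.70 ± 0.36 (adjusted p = 0.383) and that for 48 against 36 HAI was -1.10 ± 0.36 (adjusted p = 0.0763). Neither of these was called, and the lack of overlap of their arrays is no test. Against 0 HAI the intensity was at least 6.46-fold higher at 24 HAI, at least 10.8-fold higher at 36 HAI and at least 4.76-fold higher at 48 HAI. The pair of probe sets of LOC543325 thus share the rise at 24 HAI, but only S1_at was called at 12 HAI, and the difference between them is tested with the homoeologs further on.

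LOC543326, the B genome copy, was dim at 0 and at 12 HAI and reached its higher level at 24 HAI. Its probe set had 14.96, 5.05 and 11.6 at 0 HAI, 5.93, 46.3 and 12.9 at 12 HAI, 116, 193 and 126 at 24 HAI, 164, 199 and 197 at 36 HAI, and 111, 126 and 129 at 48 HAI. At 12 HAI replicate 2 was above every dry seed array while replicate 1 was among the dry seed values, so the groups overlapped, and 5 of the 6 arrays of 0 and 12 HAI were under 32. All arrays of 24 HAI were above those of 12 HAI, 24 and 36 HAI overlapped, and all of 48 HAI were below those of 36 HAI. The stage means were 10.5 ± 5.05, 21.7 ± 21.6, 145 ± 41.9, 187 ± 19.4 and 122 ± 9.60 (SD, n = 3).

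For 12 against 0 HAI its log2 change was 0.38 ± 0.32 (limma adjusted p = 0.442), and without replicate 2 of 12 HAI it was -0.06, so no direction can be given for LOC543326 before radicle emergence. The change for 24 against 12 HAI was 2.21 ± 0.32 (adjusted p = 0.000174), at least 3.90-fold in intensity with the 2 arrays of 12 HAI under 32 set to 32. For 36 against 24 HAI it was 0.36 ± 0.32 (adjusted p = 0.704) and for 48 against 36 HAI -0.55 ± 0.32 (adjusted p = 0.371), neither of them called. The intensity was at least 4.41-fold higher at 24 HAI, at least 5.81-fold higher at 36 HAI and at least 3.80-fold higher at 48 HAI than at 0 HAI. The plain ratios of the stage means, 13.7, 17.7 and 11.6, were much larger because the dry seed mean of 10.5 entered them.

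LOC543327, the A genome copy, had 9.85, 9.69 and 63.4 at 0 HAI, 98.3, 43.8 and 82.1 at 12 HAI, 86.6, 96.3 and 155 at 24 HAI, 196, 325 and 211 at 36 HAI, and 152, 201 and 167 at 48 HAI. A single dry seed array, replicate 3, stood far above the other 2 and inside the range of 12 HAI. The stages 0 and 12 HAI, 12 and 24 HAI, and 36 and 48 HAI overlapped, whereas 36 HAI was above 24 HAI with no overlap. Stage means were 27.7 ± 31.0, 74.7 ± 28.0, 113 ± 37.2, 244 ± 70.8 and 173 ± 25.0 (SD, n = 3).

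The log2 change of LOC543327 for 12 against 0 HAI was 1.22 ± 0.41, with a limma adjusted p of 0.0519 just above the threshold of 0.05. Without the deviating dry seed array it was 1.76 (adjusted p = 0.00211), whereas without replicate 1 or replicate 2 of 0 HAI it was 0.95 (adjusted p = 0.166 and 0.160). Without replicate 2 of 12 HAI it also passed (adjusted p = 0.0383), and it was called under 7 of 11 other ways of processing, so the call turned on the array and on the processing. No other step between neighbouring stages was called: 0.52 ± 0.41 for 24 against 12 HAI (adjusted p = 0.432), 1.02 ± 0.41 for 36 against 24 HAI (adjusted p = 0.230) and -0.43 ± 0.41 for 48 against 36 HAI (adjusted p = 0.644). Over longer intervals the increase was called, with 1.74 ± 0.41 for 24 against 0 HAI (adjusted p = 0.00511) and 2.33 ± 0.41 for 48 against 0 HAI (adjusted p = 0.000573). With the 2 dry seed arrays under 32 set to 32, the intensity was at least 2.71-fold higher at 24 HAI, at least 5.91-fold higher at 36 HAI and at least 4.28-fold higher at 48 HAI than at 0 HAI.

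Set side by side, 3 of the 4 probe sets were called higher for 24 against 12 HAI, where 13.3% of all tested probe sets were, and the exception was LOC543327. For 36 against 24 HAI limma called 0 of 4 higher, against 2.41% of all probe sets. Only LOC543327 had an unadjusted limma p under 0.05 (0.0299), and how many of all probe sets did was not counted. Against the dry seed, 4 of 4 were called higher at 24 HAI and 4 of 4 at 48 HAI, where 15.3% and 17.0% of all probe sets were called higher. The median log2 change of the 4 member probe sets was 0.85, 1.87, 0.53 and -0.58 over the 4 successive steps, beside medians of -0.23, -0.06, -0.02 and 0.02 over all tested probe sets. LOC543325 enters the members' medians with its pair of probe sets. For 24 against 0 HAI the members' median was 2.52 beside -0.30 for all, and for 48 against 0 HAI it was 2.36 beside -0.30. At 36 HAI the log2 change from the dry seed was 3.11 ± 0.16 and 3.16 ± 0.36 in the probe sets of LOC543325, 2.95 ± 0.32 in LOC543326 and 2.76 ± 0.41 in LOC543327 (SE), and these ranges of 1 SE overlap.

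**Figure D2:**
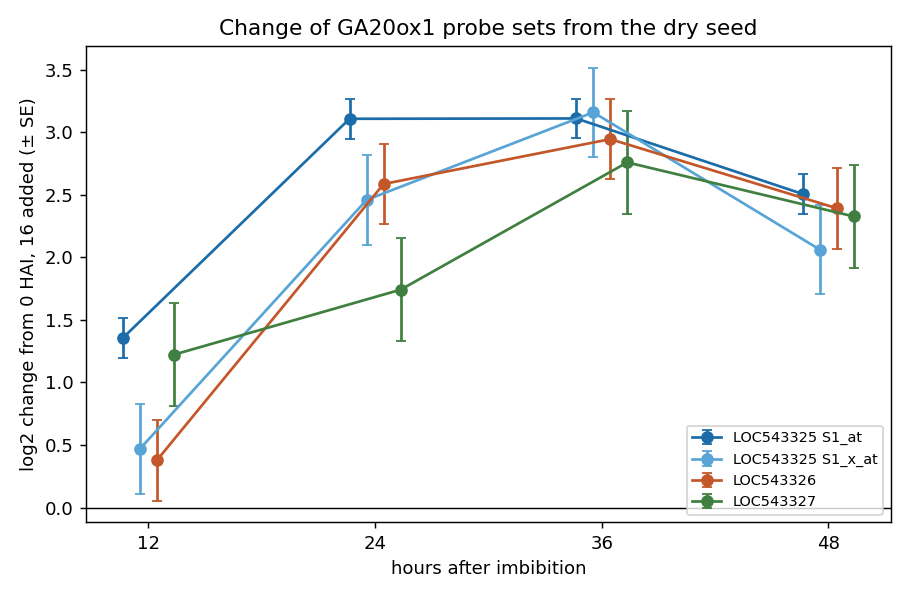
Log2 change from 0 HAI (16 added to the intensity, ± SE of limma) of each GA20ox1 probe set at 12, 24, 36 and 48 HAI, with points shifted sideways for clarity. At 24 HAI LOC543327 has the smallest change (1.74) and S1_at of LOC543325 the largest (3.11), while at 36 HAI all 4 lie between 2.76 and 3.16. The changes rest on dim dry seed values, so their sizes depend on the 16 added.

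The array scaling moved all probe sets together. The median log2 change of all tested probe sets for 12 against 0 HAI was -0.23 as deposited, 0.06 with array medians set equal, 0.21 with arrays scaled to the hybridization controls and 0.83 with arrays scaled to the poly-A controls added to the RNA. For 24 against 0 HAI these medians were -0.30, -0.02, 0.26 and 0.86. The change of LOC543325 in S1_at for 24 against 0 HAI was 3.11 as deposited and between 2.21 and 4.21 over 11 other ways of processing. In S1_x_at it was between 1.62 and 3.52, in LOC543326 between 1.47 and 3.73 and in LOC543327 between 0.98 and 2.68, and each of these was called in all 11.

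**Figure D3:**
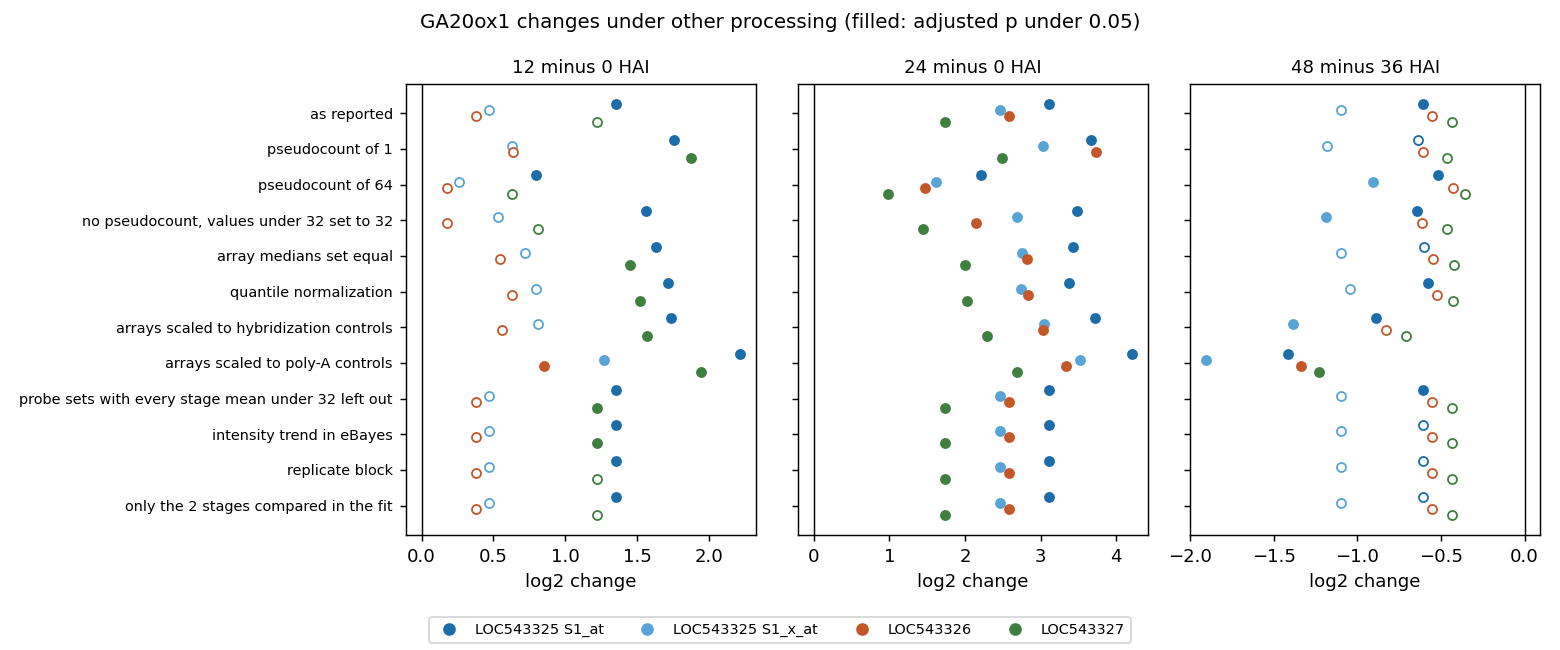
Log2 changes of the 4 GA20ox1 probe sets for 12 against 0, 24 against 0 and 48 against 36 HAI as reported and under 11 other ways of processing, with filled symbols where the limma adjusted p was under 0.05. The changes for 24 against 0 HAI are filled in every line, whereas for 12 against 0 HAI only S1_at is filled throughout and for 48 against 36 HAI no probe set is.

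Since each probe set has its own affinity, the brightness of one homoeolog cannot be set against that of another, but the way in which they change can be. The difference of log2(intensity + 16) between a pair of probe sets was taken within each array, and its variation over the 5 stages was tested by an exact permutation test over all 1401400 placements of the arrays. Of 6 pairs tested, 0 passed after adjustment over the 6, and 0 had an unadjusted p under 0.05. The smallest p were those of S1_at with its partner S1_x_at (exact p = 0.0511, adjusted 0.160) and with LOC543326 (exact p = 0.0532, adjusted 0.160). The remaining pairs were S1_at with LOC543327 (exact p = 0.134, adjusted 0.260), S1_x_at with LOC543326 (exact p = 0.788, adjusted 0.788), S1_x_at with LOC543327 (exact p = 0.217, adjusted 0.260) and LOC543326 with LOC543327 (exact p = 0.191, adjusted 0.260).

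**Figure D4:**
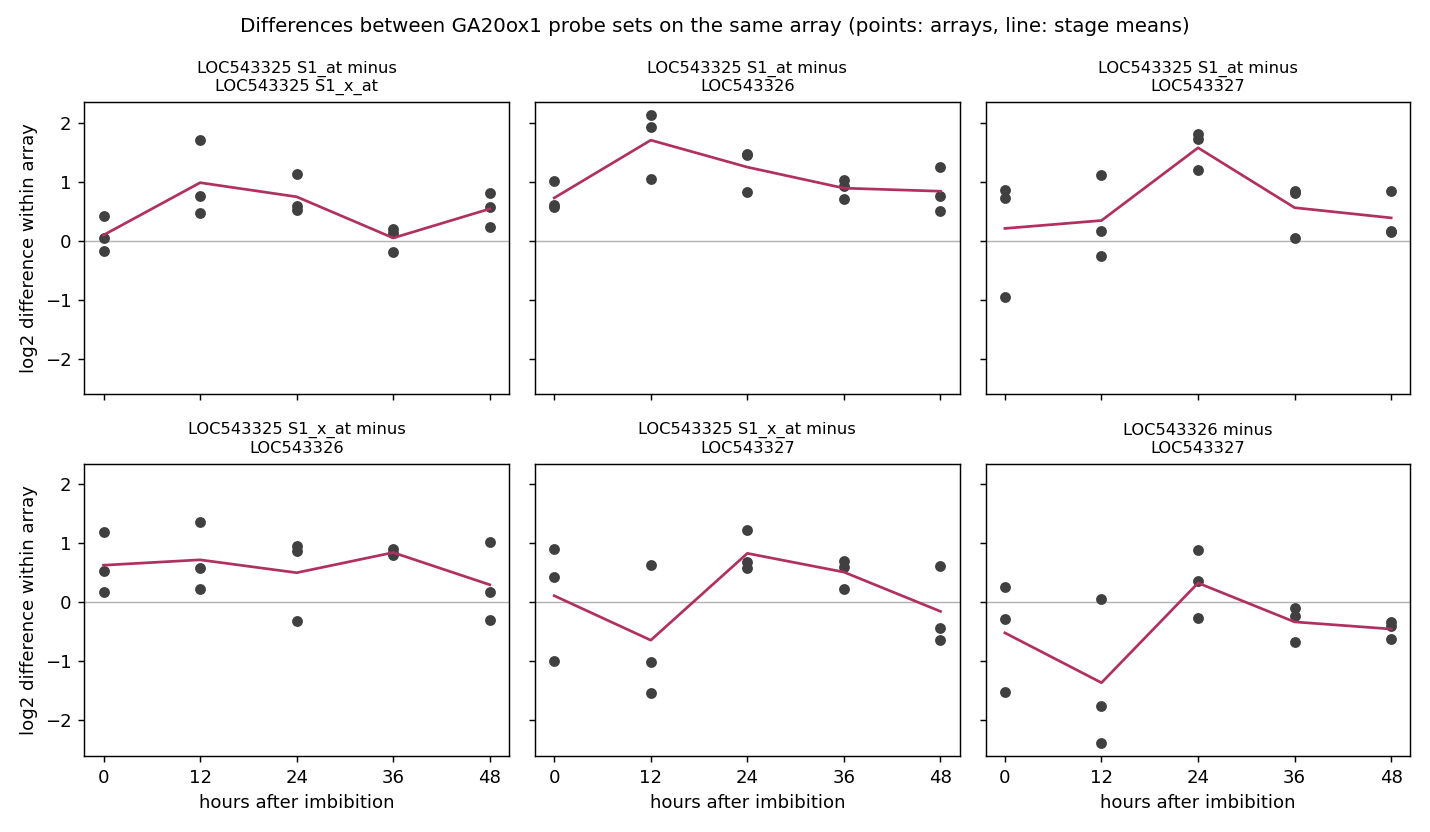
Difference of log2(intensity + 16) between 2 GA20ox1 probe sets on the same array, against hours after imbibition, with 1 point per array, 3 arrays per stage, and a line through the stage means. The height of a panel reflects probe affinity and has no meaning, only the course does, and in the pairs with S1_at the means are highest at 12 HAI against S1_x_at and LOC543326 and at 24 HAI against LOC543327.

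A test that misses the threshold does not show that homoeologs change alike, and the intervals leave room for sizeable differences. The log2 change for 12 against 0 HAI was larger in S1_at than in LOC543326 by 0.98 (95% interval 0.30 to 1.66) and than in S1_x_at by 0.89 (0.18 to 1.59). In LOC543326 5 arrays of these stages were under 32, and in S1_x_at 4 were. The size of both differences thus depends on values treated as having no order. For 24 against 12 HAI the change of LOC543327 was exceeded by that of LOC543326 by 1.69 (0.30 to 3.08), by that of S1_x_at by 1.47 (0.09 to 2.86) and by that of S1_at by 1.23 (0.09 to 2.38). For 24 against 0 HAI S1_at exceeded LOC543327 by 1.37 (0.22 to 2.51). Within-array differences did not overlap between the stages compared in these 4 intervals of S1_at, and did in those of LOC543326 and S1_x_at with LOC543327. The intervals given so far are those that left out 0, out of 6 contrasts in each of 6 pairs. They are not adjusted for the number of steps and pairs examined. They also use a spread pooled over the 5 stages, which was unequal. For LOC543326 minus LOC543327 the SD was 1.27 at 12 HAI, 0.58 at 24 HAI and 0.15 at 48 HAI. Intervals from the spread of the compared stages alone were not computed, so whether those would leave out 0 is not known. The test over all stages did not pass for any of these pairs. For 48 against 0 HAI every interval held 0, such as 0.11 (-0.57 to 0.80) for S1_at minus LOC543326, 0.18 (-0.96 to 1.32) for S1_at minus LOC543327 and 0.07 (-1.32 to 1.45) for LOC543326 minus LOC543327.

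The outcome of the exact test changed with the processing. When every value under 32 was set to 32 with no pseudocount, the exact test passed for 3 pairs, all with S1_at, at an adjusted p of 0.0350 against S1_x_at, 0.0147 against LOC543326 and 0.0350 against LOC543327. This alternative changes the floor and the pseudocount together, and with a pseudocount of 1 or 64 and no floor no pair passed (smallest adjusted p of 0.204 and 0.0569). Under the 4 other scalings no pair passed after adjustment. The unadjusted exact p there was 0.0351 to 0.0476 for S1_at with S1_x_at and 0.0160 to 0.0445 with LOC543326. With poly-A control scaling it was 0.0402 for S1_at with LOC543327. Without replicate 2 of 12 HAI the adjusted p was 0.0366 for S1_at with S1_x_at, for S1_at with LOC543326 and for LOC543326 with LOC543327. That array was the highest of its stage in both probe sets of LOC543325 and in LOC543326 and the lowest in LOC543327. The residual SD on the log2 scale was 0.17 for S1_at, 0.46 for S1_x_at, 0.41 for LOC543326 and 0.54 for LOC543327, beside a median of 0.45 over all tested probe sets.

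To place the low values, 17 tag control probe sets of the manufacturer, whose targets are not expected in wheat RNA, were read as a guide to background, a choice made after the values were seen. Their median intensity was 26.6, 10.8, 17.4, 23.7 and 14.6 at 0, 12, 24, 36 and 48 HAI, and their highest value was 237, 75.5, 99.3, 127 and 96.9. In the dry seed 0 of 3 arrays were above all tag controls in each of the 4 member probe sets. At 24 to 48 HAI, 9 of 9 arrays were above them in both probe sets of LOC543325 and in LOC543326, and 8 of 9 in LOC543327. At 12 HAI the count was 3 of 3 arrays for S1_at, 1 of 3 for S1_x_at, 0 of 3 for LOC543326 and 2 of 3 for LOC543327. A dry seed value of a GA20ox1 copy is therefore a bound, and an order of the copies in the dry seed was not measurable here. Values under 32 were common in the table, at 30.5% of tested probe sets in the dry seed and 35.9% to 36.2% at the later stages.

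With the bound on the dry seed raised to 64, the folds of 24 against 0 HAI were at least 5.58 for S1_at, 3.23 for S1_x_at, 2.21 for LOC543326 and 1.70 for LOC543327. Those of 48 against 0 HAI were at least 3.59, 2.38, 1.90 and 2.69 in the same order. The 12 HAI value of S1_at was then at least 1.48-fold higher than in the dry seed. For 12 against 0 HAI the same floor gave 1.06 for S1_x_at, 1.0 for LOC543326 and 1.25 for LOC543327. Every dry seed value of the members was under 64 and every value at 24 and 48 HAI was above it. Folds above 1 at those stages follow from this and are no further test. The highest tag control of the dry seed, 237, was above this floor as well.

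Over the 15 arrays the log2 values of every pair of members correlated positively. Pearson's r was 0.92 between the probe sets of LOC543325, 0.93 between S1_at and LOC543326, and 0.81 between S1_at and LOC543327. After the stage means were removed, r was 0.58, 0.42 and -0.41 for the same pairs. S1_x_at and LOC543326 had r of 0.92 before and 0.19 after this step. LOC543327 had 0.77 and -0.15 with S1_x_at, and 0.76 and -0.27 with LOC543326. With LOC543327 every r was thus negative once the stage means were removed. These values are descriptions over 15 arrays that share their RNA and scaling, and they were not tested.

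The probe sets most like each member were sought among 889 with a single gene symbol that passed the F-test, by Pearson's r over the 15 arrays. Nearest to S1_at was LOC542844, with r = 0.992 and mean intensities of 819, 7059 and 4776 at 0, 24 and 48 HAI, followed by LOC543128 (0.991), LOC100049037 (0.990) and LOC542808 (0.987). S1_x_at was closest to LOC543228 (0.953) and LOC543414 (0.946). LOC543326 was closest to LOC100037556 (0.965), and LOC543228 and LOC543414 came next (0.965 and 0.964). LOC543327 had its nearest neighbour at a lower value, LOC543360 with 0.906, followed by LOC543072 (0.902). Of the 5 nearest to each member, 3, 0, 1 and 1 were also among the 5 nearest by the 5 stage means in the order S1_at, S1_x_at, LOC543326 and LOC543327.

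Of the wider gibberellin pathway, the list sought covered the earlier enzymes of synthesis, gibberellin 3-oxidase and 2-oxidase, receptors, DELLA repressors, GAMYB, and alpha-amylase and cathepsin B as targets. By gene symbol, name or synonym, 1 probe set beyond the members was found, and 5 further entries of the study's gene lists, 4 of them alpha-amylases, could not be matched to a probe set by accession and have no value here. The probe set found was that of LOC543318, whose synonyms amy1 and BMY1 do not settle whether it measures an alpha-amylase or a beta-amylase. Its intensity was 62.8 ± 45.7, 7.37 ± 2.88, 8.81 ± 1.74, 53.1 ± 20.6 and 88.1 ± 20.1 (SD, n = 3) at 0, 12, 24, 36 and 48 HAI. The F-test called it (limma adjusted p = 0.0028), as lower at 12 than at 0 HAI (log2 change -1.53, adjusted p = 0.0225) and lower at 24 than at 0 HAI (-1.43, adjusted p = 0.0191). It was not called for 48 against 0 HAI (0.62, adjusted p = 0.278). It was above all tag controls in 0 of 3 arrays at each of 0, 12, 24 and 36 HAI and in 2 of 3 at 48 HAI, and 1 dry seed array was under 32, so these calls concern signals within the range of background. No direction for the alpha-amylases of the grain can be read from it.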

How the data were processed

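Per the labels, total RNA of Jimai 20 seeds was hybridized to 15 arrays, 3 biological replicates at each of 5 stages. The authors deposited MAS5 signals, an intensity on a linear scale with background and mismatch correction, scaled linearly by trimmed mean. The methods also name RMA values per group, which are not the values used here. No earlier step was repeated, and the number of arrays limits the precision.

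The table held 61290 probe sets, of which 111 manufacturer controls were set aside. The platform annotation pairs 1273 probe sets with a gene symbol. In limma 3.58.1 (R 4.3.3), 5 stage means were fitted to log2(intensity + 16), with moderated F-test and 6 contrasts, and Benjamini-Hochberg adjustment over 61179 probe sets at a threshold of 0.05. The pseudocount makes changes of dim probe sets smaller. Fold bounds used a floor of 32, with 64 as an alternative. Differences between homoeologs were tested with exact permutations in Python 3.11.15 with pandas 2.3.3 and numpy 2.4.6 (scipy 1.17.1 for intervals, matplotlib 3.10.9 for figures), two-sided by construction, and their 95% intervals use the spread pooled over stages. The steps were tested on simulated data.

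Named genes were the members, the pathway list and the 5 probe sets most like each member. Members, lists and alternatives were chosen with earlier results of these data known. Alternatives were other pseudocounts (1 and 64), a floor of 32, 4 other scalings, a filter on dim probe sets, an intensity trend, a replicate block, fits of 2 stages only, and each array left out in turn. Same-numbered replicates did not deviate together.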

Additional observations from a re-analysis of the deposited data

How the results depend on the processing

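The counts of GA20ox1 probe sets called by the F-test (4), for 24 against 12 HAI (3), 24 against 0 HAI (4) and 48 against 0 HAI (4) were the same under every alternative run. For 12 against 0 HAI, 1 probe set was called as reported, 2 with a pseudocount of 1, equal array medians, quantile normalization, hybridization control scaling, dim probe sets left out or an intensity trend, and 4 with poly-A control scaling; leaving out single arrays gave 1 to 2, where the added gene was LOC543327 on dropping 0 HAI replicate 3 or 12 HAI replicate 2. For 36 against 24 HAI, 0 were called as reported and 3 with poly-A control scaling. For 48 against 36 HAI, 1 was called lower as reported, 0 with a pseudocount of 1, equal array medians, an intensity trend, the replicate block or a fit of 2 stages only, 2 with a pseudocount of 64, values under 32 set to 32 or hybridization control scaling, and 4 with poly-A control scaling; single arrays left out gave 0 to 2. Over all tested probe sets, poly-A control scaling called 26980 of 61179 higher for 12 against 0 HAI, beside 6191 as reported. The other ways of processing with 2 members called had 5720 to 11248. For 36 against 24 HAI poly-A control scaling called 14085 higher, beside 1472 as reported. For 48 against 36 HAI it called 21330 lower, beside 3230, and the ways of processing with 2 members called had 3399 to 4201. The causes of these differences were not tested.

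The log2 change of LOC543326 for 12 against 0 HAI was -0.059 to 0.70 with single arrays left out. That of LOC543325 in S1_at for 36 against 24 HAI was -0.021 with equal array medians and -0.053 to 0.049 with single arrays left out. It was 0.10 with hybridization control scaling and 0.55, called higher, with poly-A control scaling. The medians of all tested probe sets for this step under these scalings were 0.05 and 0.42 in the same order. Over 724 alternatives of single probe set results, 686 kept direction and side of the threshold, 23 passed it in addition, 10 no longer passed and 5 changed sign.

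The homoeolog differences passed with values under 32 set to 32 (adjusted p of 0.0350, 0.0147 and 0.0350 for S1_at with S1_x_at, LOC543326 and LOC543327). With single arrays left out, adjusted p was 0.0366 to 0.342 for S1_at with S1_x_at, 0.0366 to 0.364 with LOC543326 and 0.0848 to 0.438 with LOC543327, 0.420 to 0.946 for S1_x_at with LOC543326 and 0.0711 to 0.521 with LOC543327, and 0.0366 to 0.521 for LOC543326 with LOC543327.

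Arrays of the same replicate number did not deviate together across stages. After the stage means were removed, the 30 correlations between same-numbered arrays of different stages lay between -0.03 and 0.05. The 60 correlations between arrays of other numbers and stages lay between -0.06 and 0.04. With the replicate block the adjusted p of the 6 pairs were 0.245, 0.160, 0.284, 0.792, 0.284 and 0.284, and the call for 48 against 36 HAI was the one call of the members that was lost. Dim dry seed signals limit all folds against 0 HAI to bounds.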
